A study of Mus musculus with 8 samples.

Results

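The loci of Irf1, Socs1 and Nfkbia were followed at 417 of the 136069 cytosine positions, here called sites, with a bisulfite-sequencing value in each of 8 samples. The samples came from BALB/c mice and the 4T1 line, mouse mammary carcinoma cells that spread to the lung. The members were all sites in 3 windows given in deposited coordinates: chromosome 11 from 53580000 to 53595000 (Irf1, 147 sites), chromosome 16 from 10780000 to 10790000 (Socs1, 145 sites) and chromosome 12 from 56585000 to 56600000 (Nfkbia, 125 sites). The samples were 3 lung metastases marked TVI, 3 lung metastases marked MFP and 2 primary tumors, also marked MFP. All 8 carry the same cell line and strain in the labels, with no treatment, age or animal number, and the abbreviations are kept as the labels give them. No primary tumor was marked TVI.

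The windows were chosen because regions in them differed between TVI metastases and the other samples or, at Socs1, between metastases and primary tumors. The differences of TVI metastases from MFP metastases and from primary tumors are therefore descriptions with no test. The same holds for every Socs1 difference, since both kinds of metastases entered its choice. Among the member sites, only MFP metastases against primary tumors at Irf1 and Nfkbia was tested. A methylation level here is the percentage of calls at a site that were methylated, averaged over the DNA of all cells in a sample. A change within cells and a change in the mix of cells cannot be told apart, and the cell content of the samples was not tested. Over all sites the 8 samples averaged 66.6% to 68.7%. The groups did not overlap, with 68.47% to 68.65% in TVI metastases, 67.42% to 67.49% in MFP metastases and 66.56% to 66.88% in tumors.

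The 3 genes act in inflammatory signalling. Irf1 encodes interferon regulatory factor 1, a transcription factor induced by interferon. Socs1 encodes a suppressor of cytokine signalling that binds and inhibits JAK kinases, and it is itself induced by the pathway it limits. Nfkbia encodes I-kappa-B-alpha, which holds NF-kappa-B in the cytoplasm and is induced by NF-kappa-B, so that it also closes a feedback loop. DNA methylation is placed on the cytosines of CpG dinucleotides, and CpG-rich start sites are usually free of it while gene bodies are usually methylated.

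The submitters' processing notes name mm10 (GRCm38), but the deposited positions did not match it at these loci. In the RefSeq promoter table of GRCm38.p6, 7 deposited sites had coordinates inside the Socs1 promoter and 1 of them lay on a CpG. When the CpGs of each promoter were slid along the deposited positions instead, all 12 Socs1 promoter sites lay on CpGs with the sequence moved by 94 bases. All 7 Nfkbia promoter sites did so with a move of 1100988 bases. A move was accepted only where every site lay on a CpG, so these counts are no separate check. At Irf1 the promoter windows held too few sites to be slid in this way. The start was placed from Ppp2ca on one side and Arf1 on the other, which both gave -186497 bases. The 1 measured site in the second Irf1 promoter window then lay on a CpG. Of 327 promoters placed in this way over the whole table, 0 had a shift of 0 and 30 a shift of 1 base. The older build mm9 was not at hand. Distances below run along each gene from the start site matched in this way, in deposited coordinates 53583517 for Irf1 (plus strand), 10785630 for Socs1 (minus strand) and 56593635 for Nfkbia (minus strand). Exons and introns were not assigned, and a gene end is the start plus the gene's length in GRCm38.p6, which is 8361, 1729 and 3239 bp. This assumes no insertion or deletion between the builds within a gene.

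The promoters of Socs1 and Nfkbia are shown because their measured CpGs lie in the unmethylated stretch before the sites that differ. Both are the 250 bases before the start, 5′ to 3′ along the gene, from RefSeq on GRCm38.p6, and capitals mark the CpGs that were measured.
Socs1, chr16:10785537-10785786, minus strand: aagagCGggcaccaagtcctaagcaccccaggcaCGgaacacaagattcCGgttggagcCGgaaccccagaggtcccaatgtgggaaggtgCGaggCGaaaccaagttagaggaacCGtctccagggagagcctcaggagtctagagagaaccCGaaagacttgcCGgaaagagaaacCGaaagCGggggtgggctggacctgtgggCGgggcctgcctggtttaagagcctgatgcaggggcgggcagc
Nfkbia, chr12:55492648-55492897, minus strand: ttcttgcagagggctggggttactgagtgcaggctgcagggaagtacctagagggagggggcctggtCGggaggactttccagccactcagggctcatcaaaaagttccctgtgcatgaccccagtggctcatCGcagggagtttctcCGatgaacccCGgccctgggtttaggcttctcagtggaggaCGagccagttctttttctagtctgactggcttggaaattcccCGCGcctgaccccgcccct

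All 12 measured CpGs of the Socs1 promoter and all 7 of the Nfkbia promoter were close to unmethylated in every sample, and the highest single value among them was 6.10%. The Socs1 promoter held an interferon-response-like motif, written as GAAA, any 2 bases and GAAA, at 2 overlapping places. This motif, searched on both strands, occurred in 3.44% of the 32851 promoter windows of 300 bases. The second match holds a measured CpG 72 bases before the start, within GAAACCGAAA. That CpG had 2.35%, 1.08% and 1.08% in TVI metastases, 0%, 2.11% and 1.85% in MFP metastases and 2.15% and 3.45% in primary tumors. TVI metastases overlapped with both other groups there, and MFP metastases lay below the tumors. At such low values and with unknown read depth, nothing is read from this order, and no Socs1 difference was tested. In the Nfkbia promoter a kappa-B-like motif, written as GGG, any 5 bases and CC, was matched at 2 places, neither with a CpG inside. This motif also matched in the Irf1 and Socs1 promoters, and the Socs1 match from -46 to -37 bp holds a measured CpG. A match on either strand occurred in 50.8% of all promoter windows. Within 500 bp of the start, 27 of 27 Socs1 sites, 35 of 35 Nfkbia sites and 18 of 20 Irf1 sites were under 10% in all 8 samples.

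Downstream of these unmethylated starts, TVI metastases had lower methylation than the other samples at all 3 genes. Between start and gene end, every TVI metastasis lay below every MFP metastasis at 107 of 174 sites, which is 61.5%, and above at 6. Over the whole table the shares were 10.9% of sites below and 17.9% above, and nothing is read from the contrast because the windows were chosen on it. Upstream of the starts the counts were 12 sites below and 47 above among 192, and beyond the gene ends 10 below and 8 above among 51. Against the primary tumors, TVI metastases lay below both at 107 of the 174 sites within the genes, with 12.7% below and 26.4% above over the whole table.

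**Figure D1:**
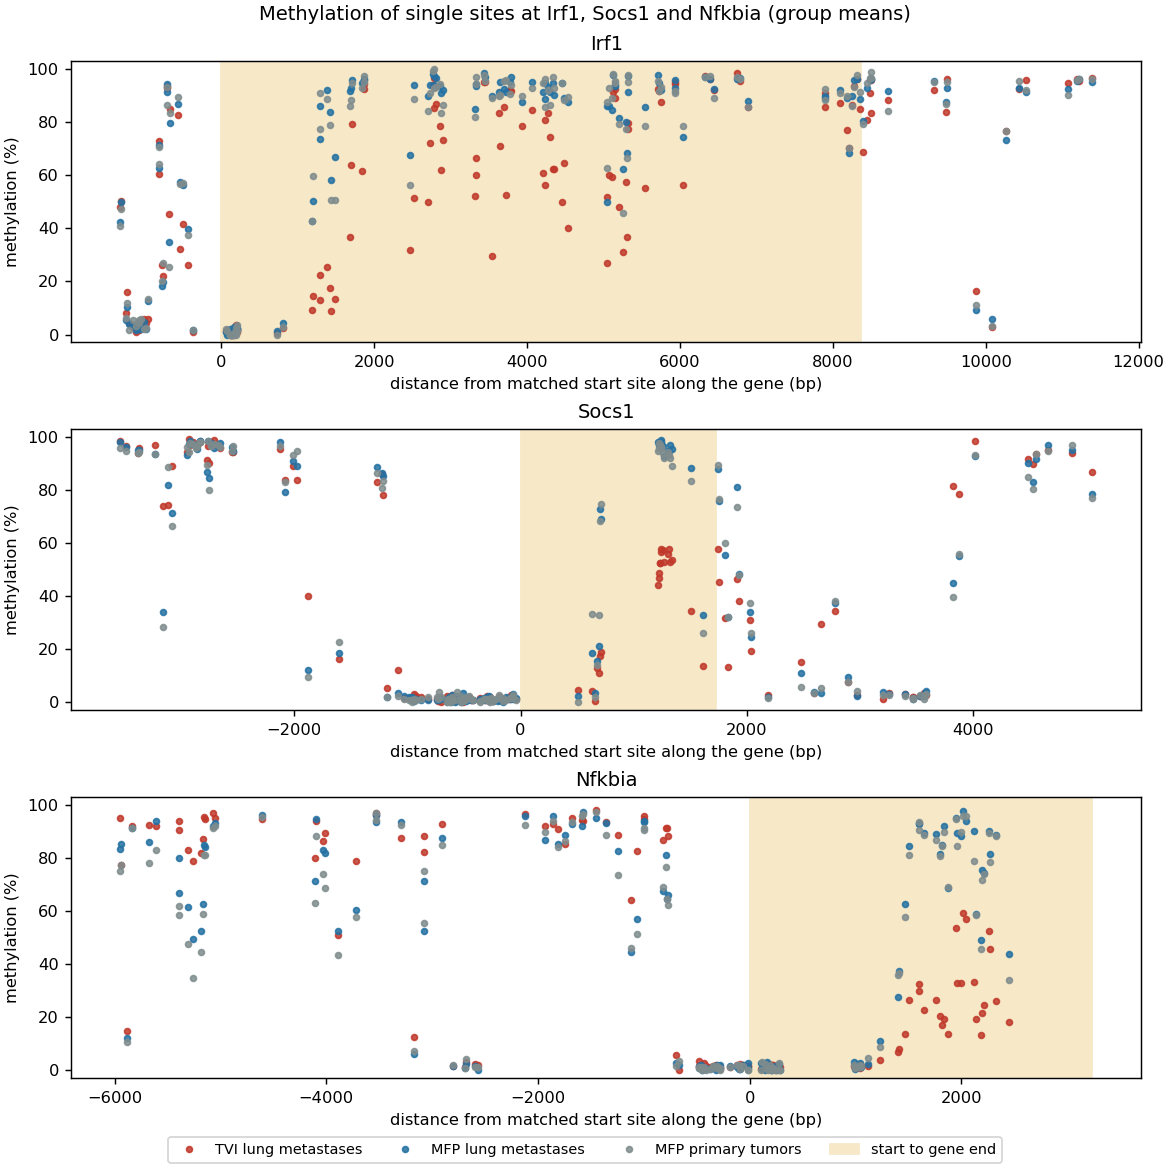
Mean methylation (%) of each measured site against its distance (bp) from the matched start site along the gene, for Irf1, Socs1 and Nfkbia. Points are means of 3 TVI metastases, 3 MFP metastases and 2 primary tumors, and shading runs from start to gene end. Within the shading 107 of 174 sites have every TVI metastasis under every MFP metastasis, while nearly all sites close to the starts are under 10% in all groups.

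The distance from the start at which methylation first exceeded 50% was longer in TVI metastases at each gene. At Irf1 it was 1699 bp in each TVI metastasis, against 1287, 1193 and 1193 bp in MFP metastases and 1193 bp in both primary tumors. At Socs1 it was 1220, 1243 and 1214 bp in TVI metastases, against 700 bp in each MFP metastasis and in both tumors. At Nfkbia it was 1949 bp in each TVI metastasis, against 1472 bp in each MFP metastasis and 1503 and 1472 bp in the tumors. From the group means, the crossing lay 506, 530 and 477 bp farther into Irf1, Socs1 and Nfkbia in TVI than in MFP metastases. These distances move in steps, since only measured sites can mark the crossing. TVI means did not stay above 50% after it. At Nfkbia the TVI mean was 53.7% at +1949 bp but 33.0% at +1959 bp. Farther on it was 31.7% at +2469 bp in Irf1 and 34.6% at +1510 bp in Socs1. MFP metastases also had later sites under 50%, such as 43.9% at +2454 bp in Nfkbia and 33.0% at +1616 bp in Socs1. The crossing is therefore only the first site above 50% and does not mark a lasting rise. At Socs1 no site was measured between +709 and +1214 bp, and this gap makes up most of the 530 bp, so the crossing there is poorly located.

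For the Irf1 transcription factor gene, the measured sites formed 7 regions, each a chain of sites with gaps of at most 500 bp. The first region runs from -1327 to +210 bp around the start and holds 43 sites. It averaged 20.7%, 19.3% and 19.7% in TVI metastases, 20.8%, 20.6% and 20.1% in MFP metastases, and 20.2% and 20.6% in primary tumors. The groups overlapped in this mean, but not at every site. At -542 bp the means were 32.3% in TVI metastases, 57.3% in MFP metastases and 56.7% in tumors, with every TVI metastasis below the other samples. The 3 sites from -500 to -1 bp averaged 23.0%, 32.7% and 32.1% in the same groups. Of the 26 sites upstream of the start, 4 (15.4%) had every TVI metastasis below every MFP metastasis and 4 (15.4%) above. Over the whole table the shares were 10.9% below and 17.9% above, so nothing is read from these counts.

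The deepest Irf1 difference followed directly, in 16 sites from +721 to +1863 bp (chromosome 11 from 53584238 to 53585380). Methylation was 39.9%, 31.9% and 32.5% in TVI metastases, 70.6%, 69.4% and 71.2% in MFP metastases, and 68.6% in both primary tumors. All TVI samples lay far below the other 5, and the difference from MFP metastases was -35.7 points. Group means were 34.7% ± 4.45 in TVI metastases, 70.4% ± 0.8996 in MFP metastases and 68.6% ± 0.0416 in primary tumors, where the error is the SD over n = 3, 3 and 2 samples, here and below.

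The separation at Irf1 became smaller with distance along the gene. In 35 sites from +2469 to +4534 bp, TVI metastases had 72.2%, 68.0% and 70.3%, MFP metastases 92.7%, 92.0% and 92.1%, and tumors 90.3% and 91.5%. In 26 sites from +5041 to +6884 bp, the values were 77.5%, 72.4% and 73.9% in TVI metastases, 87.4%, 89.0% and 86.0% in MFP metastases, and 86.0% and 88.3% in tumors. The TVI samples lay below all others in both regions, by 22.1 and 12.9 points under MFP metastases. Near the gene end, in 15 sites from +7893 to +8726 bp, the TVI mean was still lower, at 85.4% ± 0.953, against 90.1% ± 1.37 in MFP metastases and 89.99% ± 0.791 in tumors. In the 2 regions beyond it, from +9317 to +11395 bp, TVI and MFP metastases overlapped.

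Among single Irf1 sites, the 3 largest differences lay within 122 bp of each other, from +1293 to +1415 bp. At position 53584894 methylation was 33.7%, 21.9% and 20.5% in TVI metastases, 91.7%, 91.7% and 92.5% in MFP metastases, and 90.4% and 87.0% in tumors. At position 53584932 the group means were 17.6% in TVI metastases, 84.0% in MFP metastases and 78.8% in tumors, and at position 53584810 they were 22.3%, 86.2% and 90.9% in the same groups. The largest Irf1 gain lay upstream, at -691 bp (position 53582826). It had 46.2%, 46.3% and 43.5% in TVI metastases, 38.9%, 32.4% and 32.7% in MFP metastases, and 28.9% and 21.98% in tumors, with no overlap between groups.

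At Socs1, the JAK inhibitor gene, TVI metastases were lower over nearly the whole measured gene. From start to gene end, 22 sites averaged 42.2%, 29.8% and 38.3% in TVI metastases, 71.0%, 72.2% and 72.4% in MFP metastases, and 69.9% and 72.2% in primary tumors. TVI metastases lay below all MFP metastases at 19 of the 22 sites (86.4%) and above at 0, against 10.9% below and 17.9% above over the whole table. A run of 23 consecutive separated sites spanned +692 to +1914 bp, past the gene end at +1729 bp. Its mean was 42.6% ± 7.38 in TVI metastases, 81.4% ± 0.592 in MFP metastases and 80.3% ± 0.806 in tumors. The bin from +1000 to +1499 bp holds 13 of these sites and had 57.8%, 44.8% and 56.8% in TVI metastases, 97.3%, 96.2% and 96.4% in MFP metastases, and 91.3% and 97.7% in tumors. Sites there were almost fully methylated outside the TVI group and near the middle of the scale within it.

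Joining sites gave Socs1 a short region of 7 sites from +506 to +709 bp (chromosome 16 from 10784921 to 10785124). It had 14.9%, 6.42% and 8.89% in TVI metastases, 27.0%, 29.999% and 30.4% in MFP metastases, and 33.7% and 30.7% in tumors. TVI metastases were -19.1 points from MFP metastases, and MFP metastases were -3.08 points from tumors. The neighboring region of 48 sites runs from +1214 to +5054 bp, joins the methylated part of the gene to sites beyond it, whose mean in each bin from +2000 to +3499 bp was under 20% in all samples, and had 40.7% ± 3.50 in TVI metastases, 55.0% ± 0.265 in MFP metastases and 53.9% ± 0.577 in tumors. Upstream of the start, 90 sites averaged 34.5% ± 0.0679, 33.5% ± 0.379 and 33.4% ± 0.179 in the same groups.

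Single sites around Socs1 also differed in the opposite direction. Position 10788792, at -3162 bp, had 68.8%, 77.2% and 76.2% in TVI metastases, 27.0%, 35.8% and 38.8% in MFP metastases, and 26.4% and 30.1% in tumors. Position 10787508, at -1878 bp, had means of 40.2% in TVI metastases, 12.1% in MFP metastases and 9.66% in tumors. Beyond the gene, position 10781806 had 81.0%, 82.5% and 80.6% in TVI metastases, 57.6%, 25.5% and 51.7% in MFP metastases, and 38.5% and 41.0% in tumors. The sites with the largest differences downward were position 10784930 at +700 bp, with means of 17.7% in TVI metastases, 72.9% in MFP metastases and 68.3% in tumors, and positions 10784416 and 10784120, at +1214 and +1510 bp, which were -53.9 and -53.7 points from MFP metastases.

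Nfkbia, the gene of the NF-kappa-B inhibitor, had the deepest region of the table when sites were joined over gaps of at most 500 bp. In 34 sites from +982 to +2454 bp (chromosome 12 from 56591181 to 56592653), methylation was 27.1%, 17.3% and 21.2% in TVI metastases, 60.9%, 60.5% and 59.0% in MFP metastases, and 58.0% and 59.4% in primary tumors. The TVI samples were well apart from the other 5, at -38.3 points from MFP metastases. By this difference the region stood at place 1 of 3083 from the low end and the Irf1 region from +721 bp at place 2, while the Socs1 region from +506 bp stood at place 20. The bin from +1500 to +1999 bp, with 12 sites, had 34.1%, 21.4% and 26.5% in TVI metastases, 88.7%, 87.8% and 85.9% in MFP metastases, and 87.2% and 85.1% in tumors. The 3 sites of Nfkbia with the largest differences lay from +1648 to +1835 bp, and position 56591800 had 21.9%, 13.6% and 22.3% in TVI metastases, 96.4%, 89.8% and 90.4% in MFP metastases, and 90.1% and 89.8% in tumors. The last measured site in the window lay at +2454 bp, so the end of the gene was not analysed here.

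**Figure D2:**
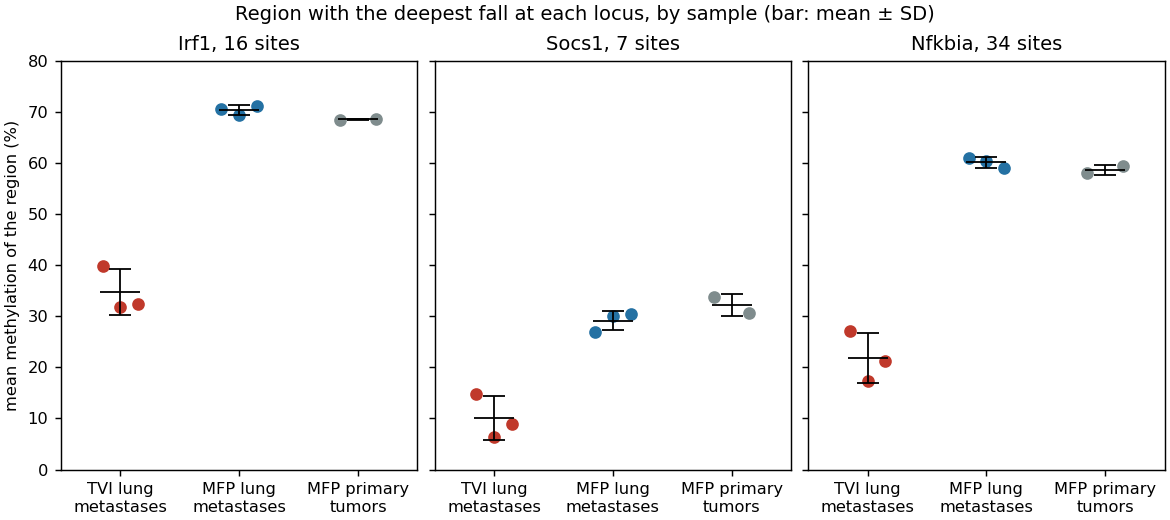
Mean methylation (%) of the region with the lowest TVI minus MFP difference at each locus, with 1 point per sample in TVI metastases (n = 3), MFP metastases (n = 3) and primary tumors (n = 2), and bars for mean ± SD. The TVI points lie between 6.42% (Socs1) and 39.9% (Irf1), and in each panel all of them are under the points of the other groups.

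Upstream of Nfkbia the direction was the opposite. TVI metastases lay above every MFP metastasis at 30 of 76 sites before the start and below at 2. These are 39.5% and 2.63%, against 17.9% above and 10.9% below over the whole table, in a window chosen on this contrast. The 76 sites averaged 56.1%, 56.1% and 56.0% in TVI metastases, 50.5%, 49.9% and 50.8% in MFP metastases, and 48.2% and 47.7% in tumors. A run of 10 separated sites from -5396 to -5048 bp had 90.6%, 89.0% and 89.7% in TVI metastases, 73.9%, 68.4% and 75.9% in MFP metastases, and 64.0% and 66.4% in tumors. In this run the groups formed 3 steps without overlap, in the same order as the means over all sites. The sites with the largest gains were position 56596709, at 82.1% in TVI metastases, 52.5% in MFP metastases and 55.7% in tumors, and positions 56598896 and 56598817 within the run, which were 29.5 and 29.1 points above MFP metastases.

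In each of the 3 deepest regions TVI replicate 1 was the highest and TVI replicate 2 the lowest of the TVI samples. Among the 64 regions of the table at least 10 points lower in TVI than in MFP metastases, replicate 1 was highest in 59 and replicate 2 lowest in 52, whereas over all 3083 regions the shares were 39.8% and 39.4%.

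**Figure D3:**
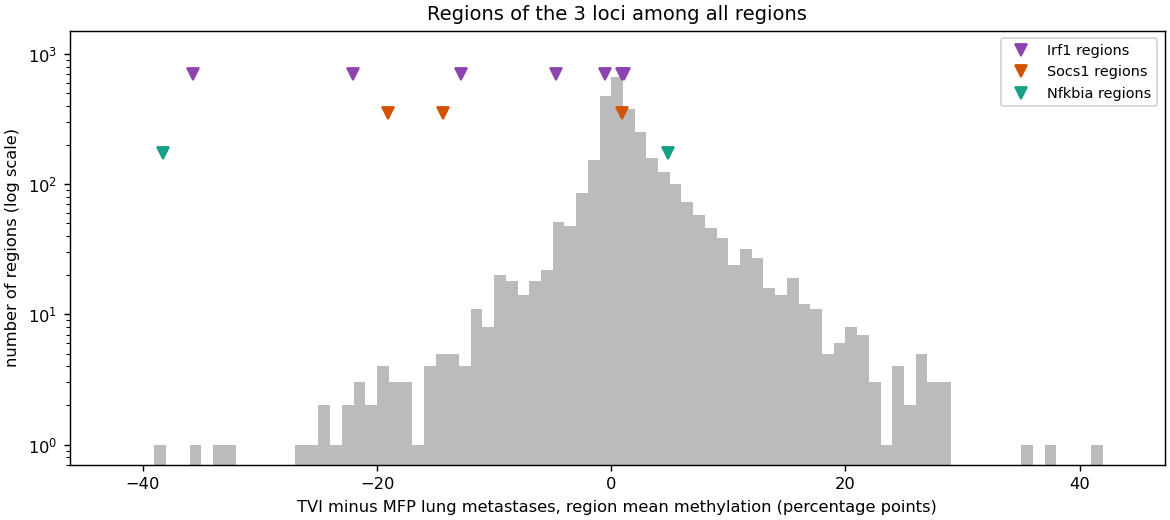
Number of regions (log scale) by the difference in mean methylation between TVI and MFP metastases (percentage points), for all 3083 regions in grey, with the 7 Irf1, 3 Socs1 and 2 Nfkbia regions as triangles. The Nfkbia region at -38.3 points and the Irf1 region at -35.7 points are at the low end, and 6 of the 12 triangles lie within 5 points above or below 0.

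Whether metastases of the MFP group already differed from the MFP tumors at Irf1 and Nfkbia was tested with limma over all sites and over all regions, adjusted by the Benjamini-Hochberg method with a threshold of 0.05. At single sites limma called 0 of 147 at Irf1 (8 at an unadjusted p under 0.05) and 0 of 125 at Nfkbia (11). Of all 135914 tested sites, limma called 0.0464% (0.0427% higher and 0.00368% lower in MFP metastases). Its unadjusted p was under 0.05 at 11766 of these 135914 sites, so no excess is read from the unadjusted counts at either locus. The Irf1 region from +721 bp was 1.84 points above the tumors (SE 2.18, limma adjusted p = 0.667). The deep Nfkbia region was 1.42 points above them (SE 2.43, limma adjusted p = 0.772). Neither passed the test, nor did any other Irf1 region. At the Irf1 region all 3 MFP metastases lay above both tumors, and the SE comes from a spread shared by all 3 groups, with SDs of 4.45 in TVI metastases, 0.8996 in MFP metastases and 0.0416 in tumors. At the Nfkbia region the SDs were 4.93 in TVI metastases, 0.996 in MFP metastases and 0.986 in tumors, and MFP metastases and tumors overlapped. With only the compared groups in the fit, the limma adjusted p was 0.190 at the Irf1 region and 0.368 at the Nfkbia region.

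The long Nfkbia region from -5949 to +288 bp (91 sites) was the single member region that passed, against 5.25% of all regions (4.93% higher and 0.324% lower). It had 42.4%, 41.8% and 42.6% in MFP metastases, against 40.4% and 40.01% in primary tumors, a rise of 2.06 points (SE 0.439, limma adjusted p = 0.0429). All 3 MFP metastases lay above both tumors, and TVI metastases had 47.1% ± 0.0803. The call was lost after quantile normalization (1.17 points, adjusted p = 0.263) and with only the compared groups in the fit (adjusted p = 0.0895). Without TVI replicate 1 the adjusted p was 0.0491, and without any 1 of the other 7 samples it was 0.0606 to 0.193.

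Regions most like the deepest region of each locus were taken as the 3 with the smallest root mean square difference over the 8 sample means. For Nfkbia these were chromosome 15 from 77667560 to 77668748 (5.72 points), chromosome 3 from 57652054 to 57652302 (8.08 points) and chromosome 1 from 59537821 to 59541859 (8.75 points), which lies within 2 kb of the placed start of Fzd7, a Wnt receptor gene. The chromosome 15 region was also second for Irf1 (7.29 points), after chromosome 4 from 140794293 to 140796098 (5.20 points). The third for Irf1 was chromosome 10 from 80590363 to 80590518 (7.33 points). For Socs1 they were chromosome 11 from 98903028 to 98904510 (2.92 points), chromosome 3 from 122124155 to 122124378 near Bcar3 (3.44 points) and chromosome 8 from 11001191 to 11008319 near Irs2, an adaptor of insulin signalling (4.96 points). On this measure the Irf1 and Nfkbia regions differed from each other by 11.3 points, Socs1 and Nfkbia by 24.3 points and Irf1 and Socs1 by 34.6 points. The Socs1 distances depend on how sites were joined, since its region holds only 7 sites before an unmeasured gap. Its run of separated sites from +692 to +1914 bp had 42.6% in TVI metastases, 81.4% in MFP metastases and 80.3% in tumors. In the same groups the Irf1 run from +1189 to +1833 bp had 30.5%, 77.4% and 75.1%. The Nfkbia run from +1234 to +2454 bp had 27.1%, 75.3% and 73.5%.

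Other genes of interferon, JAK-STAT and NF-kappa-B signalling gave no common direction. Of 85 listed genes, 70 had a promoter sequence and 12 could be placed with measured sites within 2 kb of the start, giving 23 regions. Between TVI and MFP metastases, limma called 9 of the 23 higher and 5 lower, 60.9% in all, against 55.7% of all regions (42.0% higher and 13.8% lower). The share was close to that of the whole table. The median difference was -0.130 points in the list and 0.837 points over all regions. After quantile normalization 8 were higher and 10 lower, and over all regions the split of 1294 higher and 424 lower became 928 and 687.

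The largest fall in the list lay upstream of Irf8, a relative of Irf1 that directs myeloid development, from -1858 to -273 bp. It had 38.4% ± 1.15 in TVI metastases and 50.3% ± 0.743 in MFP metastases (limma adjusted p = 6.94e-06). Another Irf8 region, from +2047 to +6487 bp, was 1.92 points higher in TVI metastases (limma adjusted p = 0.00463). Ptpn11, which encodes the phosphatase SHP2, fell by 8.19 points from +532 to +1416 bp, at 37.7% ± 1.72 in TVI metastases and 45.9% ± 1.16 in MFP metastases (limma adjusted p = 0.000226). Farther along Ptpn11, from +1918 to +4133 bp, TVI metastases were 1.57 points higher (limma adjusted p = 0.0126). Ifngr2, a chain of the interferon-gamma receptor, also changed in both directions. After its start, from +375 to +1434 bp, it had 16.5% ± 1.60 in TVI metastases and 24.4% ± 1.14 in MFP metastases (limma adjusted p = 0.000453). Before its start, from -1492 to -143 bp, it had 54.3% ± 0.578 in TVI metastases and 49.5% ± 0.759 in MFP metastases (limma adjusted p = 0.000271).

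Among the rises, the region shared by Stat5a and Stat5b, neighboring genes of cytokine-activated transcription factors, was 5.67 points higher in TVI than in MFP metastases (limma adjusted p = 1.95e-05). Socs3, another suppressor of cytokine signalling, had 44.8% ± 0.317 in TVI metastases and 41.0% ± 0.818 in MFP metastases (limma adjusted p = 0.000452). Rela, the p65 subunit of NF-kappa-B, was 2.79 points higher before its start (limma adjusted p = 0.000992). Nfkbie, which encodes another I-kappa-B protein, was low around its start, at 2.10% ± 0.142 in TVI metastases and 2.28% ± 0.204 in MFP metastases (limma adjusted p = 0.478). Between MFP metastases and tumors 1 list region was called, before the start of the kinase gene Tyk2, at 88.9% ± 0.196 in MFP metastases and 87.1% ± 0.104 in tumors (limma adjusted p = 0.0440). That call was lost without any 1 sample other than TVI replicate 1.

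**Figure D4:**
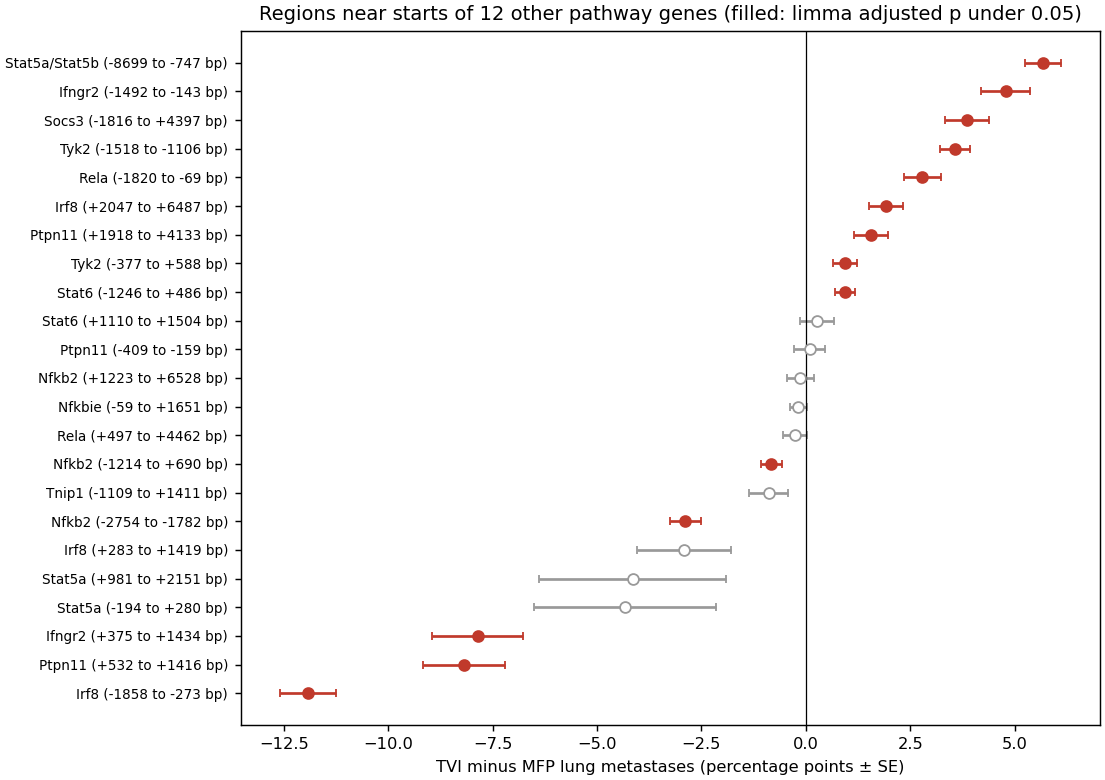
Difference in mean methylation between TVI and MFP metastases (percentage points ± SE from limma) for 23 regions near the starts of 12 other pathway genes, with each region's distance from the start in its label. Filled points passed the threshold, 9 to the right of 0 (higher in TVI metastases) and 5 to the left, led by Irf8 at -11.9 points.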

How the data were processed

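The authors deposited 1 table of methylated fractions (beta values, from 0 to 1), per the file headers, with a column for each of the 8 samples. Per the labels' protocols, DNA came from a ZR-Duet extraction and was converted with an EZ-DNA Methylation Gold kit. Trimmomatic, Bismark and mm10 appear in the submitters' processing notes, with versions, settings and coverage filters not given in the sources used here. Without read counts, depth is unknown, no interval was computed, and precision rests on the spread between samples. Separate animals are not stated for samples of a group, which leaves p-values that measure only this spread and may be technical.

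Differences in fractions were tested in R 4.3.3 with limma 3.58.1 (a mean for each group, all 8 samples, a variance trend, two-sided), adjusted over 135914 variable sites or 3083 regions of at least 3 sites with gaps of at most 500 bp. The fits were also run on normally distributed data simulated from their own fitted means and variances, with shifts added only at intermediate means. This cannot show how they behave at sites near the ends of the scale. A promoter was placed where at least 5 deposited sites fell in it, all on CpGs, with the same shift as another promoter on that chromosome or with at least 7 sites, or where placed neighbors on both sides gave 1 shift. Named sites are the 3 largest differences in each direction per locus, TVI minus MFP metastases. The members, the pathway list, bins and runs (at least 5 consecutive sites without overlap of TVI and MFP metastases) were chosen with earlier results of these data known. Alternatives were the M-value scale, quantile normalization, no variance trend, replicate number as a block, only the groups compared, leaving out each sample, joining distances of 250 and 1000 bp, and sites with a mean from 10% to 90%.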

Additional observations from a re-analysis of the deposited data

How the results depend on the processing

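At the deepest region of each locus, TVI metastases stayed below MFP metastases and below primary tumors in each alternative run. Without any 1 sample the TVI minus MFP difference was -38.2 to -34.2 points at Irf1, -21.5 to -17.2 at Socs1 and -40.9 to -36.0 at Nfkbia. Sizes depended on which sites were averaged. With sites from 10% to 90% only, the TVI minus MFP difference was -46.9 points at Irf1, -26.6 at Socs1 and -49.7 at Nfkbia, and against tumors it was -44.6, -31.7 and -47.9 points. With a joining distance of 1000 bp, which merges each region with neighboring regions, it was -14.2, -0.915 and -6.92 points against MFP metastases, and -13.4, -0.724 and -5.03 points against tumors. With 250 bp, Irf1 was at -40.6 and -38.7 points. MFP minus tumor differences moved to 0.624 (Irf1) and 0.203 (Nfkbia) points under quantile normalization, to 0.740 points (Irf1) and 0.191 points (Socs1, now above the tumors) with 1000 bp, and to -5.09 points (Socs1) with sites from 10% to 90%.

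Between MFP metastases and tumors, 63 sites passed over the whole table. The count was 0 on the M-value scale (10754 at an unadjusted p under 0.05), 0 with the replicate block (10913), 0 with only the groups compared (10382), 28 after quantile normalization, 155 without the variance trend, 379 with sites from 10% to 90%, and 0 to 18 without 1 sample (10620 to 11802 at an unadjusted p under 0.05 where it was 0). Of regions, 162 passed, against 72 after quantile normalization, 65 with the replicate block, 87 with only the groups compared and 56 to 171 without 1 sample. The 1 list region called there became 0 on the M-value scale, after quantile normalization, with the replicate block, with only the groups compared, with sites from 10% to 90% and with 250 or 1000 bp, and 0 to 1 without 1 sample. For TVI against MFP metastases the 14 list regions called became 7 of 11 with 1000 bp.

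Samples with the same replicate number did not deviate together (correlations of -0.0319 to 0.0264 across regions). Such correlations cannot show whether same-numbered samples came from the same animal, and the labels do not state it. With the replicate block the Nfkbia region from -5949 bp was 1.99 points above the tumors (limma adjusted p = 0.128). A coverage minimum could not be varied, since depth is unknown.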
